A study of Mus musculus with 2 samples.

Results

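The genes described here are 6 scavenger receptors, Msr1, Marco, Cd36, Olr1, Scarb1 and Cd163, out of 19537 genes in 2 single-cell libraries of mouse microglia. They were chosen by gene family and selected on measured values of these same libraries, because Msr1 had one of the lowest ratios between PARK7/DJ-1 KO and wildtype cells after LPS. The direction of that difference is therefore a description, and no test was run on it.

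Scavenger receptors are surface proteins that bind modified lipoproteins, bacterial lipids, dying cells and other polyanionic particles and carry them into the cell. MSR1 (scavenger receptor A) and MARCO are class A receptors of macrophages with a collagen-like stalk, CD36 and SCARB1 are class B receptors for fatty acids and lipoproteins, OLR1 (LOX-1) is a C-type lectin that binds oxidised low-density lipoprotein, and CD163 takes up haemoglobin bound to haptoglobin. In the brain, MSR1 and CD36 are known for the uptake of amyloid-beta by microglia, MARCO is known as a receptor of lung and splenic macrophages that lipopolysaccharide (LPS) induces, and CD163 is used as a marker of macrophages at the borders of the brain.

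The study asked how loss of DJ-1, the protein made by Park7, alters microglia during systemic inflammation. Each library pooled CD11b+CD45int cells, the sorted microglial gate, from 2 mice, 1 female and 1 male, that were 3 to 4 months old and had received 4 µg/g LPS into the peritoneum 24 h before. The KO LPS library came from mice with a gene-trap insertion in both Park7 alleles, backcrossed to C57BL/6NCrl, and the WT LPS library from wildtype littermates. Transcripts were captured by Drop-seq, in which each bead carries a cell barcode and each captured RNA molecule a unique molecular identifier (UMI).

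A cell was a barcode with at least 500 UMIs and 100 genes, which left 320 KO LPS cells (381305 UMIs, median 964 a cell) and 1427 WT LPS cells (1989011 UMIs, median 1065). With 1 library per genotype, genotype and library cannot be told apart, there is no replicate check, and all intervals below are 95% intervals that cover counting error only. The libraries shared 11 of their barcodes but no cell barcode, and 2 KO LPS and 53 WT LPS cells had a barcode that differs at 1 base from that of a deeper cell. Park7 itself had 1 UMI in KO LPS (2.62 per 1000000 UMIs, CPM) and 323 in WT LPS (162 CPM), in the direction of the labels. All 14 microglial markers were detected in both libraries, with a summed level of 40256 CPM for KO LPS and 29312 CPM for WT LPS. A list of 5 choroid plexus genes stood at 2130 CPM in KO LPS against 15.1 CPM in WT LPS, and 8 neutrophil genes at 0 against 70.9 CPM. Endothelial genes stood at 94.4 CPM in the KO library against 19.1 CPM, and astrocyte genes at 370 against 173 CPM. The part of these differences in the results below was not tested.

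The receptors fell into a pair that was abundant in WT LPS and nearly absent from KO LPS, a receptor with overlapping low levels in both, and 3 that were at trace level. Msr1 (chromosome 8, 39543232 to 39642750; positions are RefSeq's on GRCm38.p6, matched by symbol) had 2 UMIs in KO LPS, both in the same cell, while WT LPS held 3153, spread over 975 cells. The wildtype level was 1585 CPM (1530 to 1642), and that of KO LPS 5.25 CPM (0.635 to 18.9). The ratio of KO LPS to WT LPS was 0.00331 (0.000401 to 0.012), a level 302-fold lower in KO LPS, and at the WT LPS level the KO LPS cells would have held 604 Msr1 UMIs.

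Marco (chromosome 1, 120474538 to 120505024) had 2 UMIs in KO LPS, in 2 cells, and 879 UMIs in 155 cells of WT LPS. These correspond to 5.25 CPM (0.635 to 18.9) for KO LPS and 442 CPM (413 to 472) for WT LPS, with a ratio of 0.0119 (0.00144 to 0.043). For both class A receptors the intervals of the libraries lay far apart.

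Scarb1 (chromosome 5, 125277087 to 125341094), the receptor for high-density lipoprotein, differed from this pair. KO LPS cells held 11 of its UMIs and WT LPS cells 56, or 28.8 CPM (14.4 to 51.6) and 28.2 CPM (21.3 to 36.6). The ratio was 1.02 (0.484 to 1.98), an interval wide enough that the counts do not show the levels to be the same.

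Cd36 (chromosome 5, 17781690 to 17888959) had 6 UMIs in WT LPS, Olr1 (chromosome 6, 129479150 to 129507350) had 2 and Cd163 (chromosome 6, 124304636 to 124330529) had 1, and no cell held more than 1 UMI of any of them. None of the 3 had a UMI in KO LPS cells. A count of 0 there allows up to 7.87 CPM (3 UMIs, a one-sided 95% limit that serves as the floor throughout), above each of the WT LPS levels of 3.02, 1.01 and 0.503 CPM, so no difference was detectable at this depth. Cd36 and Cd163 have no row of values in the KO LPS matrix, and such rows were read as 0. Of the 3870 genes with at least 100 UMIs in WT LPS, 12 (0.31%) had no row in KO LPS.

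Over both libraries together 9085 genes reached 20 UMIs, and of these 15.3% were at least 2-fold lower in KO LPS and 13.5% at least 2-fold higher, with a median log2 ratio of 0.03. Of the 6 receptors, 3 passed that minimum, of which 2 were at least 2-fold lower, 0 were higher and Scarb1 was neither; the other 3 did not pass. Since the receptors were selected on this contrast, nothing is read from their share against the 15.3%.

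**Figure D1:**
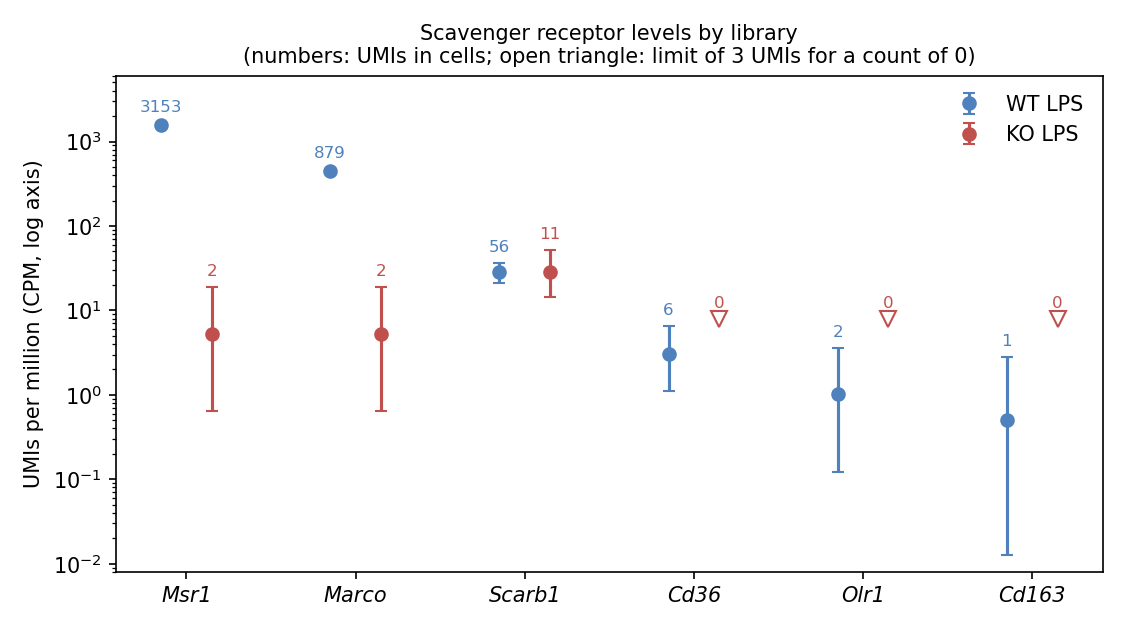
Level of each receptor in CPM on a log axis, by library (blue WT LPS, red KO LPS), with exact 95% Poisson intervals and the number of UMIs in cells above each point; open triangles mark the floor of 3 UMIs for a count of 0. Msr1 and Marco stand at 1585 and 442 CPM in WT LPS and at 5.25 CPM in KO LPS, while the intervals of Scarb1 overlap.

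The low levels in KO LPS did not depend on where the minimum for a cell was set. WT LPS barcodes with 400 to just under 500 UMIs, below the minimum, held Msr1 at 1502 CPM (1250 to 1791) and Marco at 327 CPM (216 to 476), and those with 500 to just under 600 UMIs held 1582 CPM (1330 to 1868) and 421 CPM (296 to 580). KO LPS barcodes of both depths held no UMI of either gene. In deeper WT LPS cells the Msr1 level lay between 1412 and 1686 CPM in every depth class, with the lowest value in cells of 2500 UMIs or more. Other barcodes of the KO LPS matrix added few: over all its 9999 barcodes there were 7 Msr1 UMIs and 2 Marco UMIs, against 5003 and 1162 in WT LPS.

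Cells of the female and the male mouse could be separated in part, by an Xist UMI without a Y-linked UMI or the reverse. In WT LPS, 565 cells with Xist held 1685 Msr1 UMIs, 2081 CPM (1983 to 2183), and 195 cells with a Y-linked UMI held 323, 1051 CPM (939 to 1172). The WT LPS female's cells thus carried Msr1 at a level above the male's, with intervals that do not overlap, while Marco stood at 433 CPM (389 to 481) in the female and 530 CPM (452 to 618) in the male, with intervals that do overlap. Sex and animal cannot be told apart with 1 mouse of each sex. In KO LPS no Msr1 UMI was found in the 200 cells with Xist, at least 181-fold lower than in the matching WT LPS cells, nor in the 12 cells with a Y-linked UMI, at least 5.06-fold lower. Both floors are 3 UMIs per set of cells. Marco had 1 UMI in the 200 KO LPS cells with Xist and 0 in the 12 with a Y-linked UMI. The 12 male cells are too few to set a tight limit.

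To compare cells at equal depth, each cell was thinned at random to 500 UMIs. An Msr1 UMI was then seen in 690 of 1427 WT LPS cells (48.4%, exact binomial interval 45.7 to 51) and in 1 of 320 KO LPS cells (0.312%, 0.00791 to 1.73). A Marco UMI was seen in 96 WT LPS cells (6.73%, 5.48 to 8.15) and 1 KO LPS cell (0.312%, 0.00791 to 1.73). Scarb1 was seen in 19 WT LPS cells (1.33%, 0.803 to 2.07) and 5 KO LPS cells (1.56%, 0.509 to 3.61). Without thinning, the WT LPS shares were 68.3% for Msr1, 10.9% for Marco and 3.64% for Scarb1.

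These shares have to be set beside free RNA, which reaches every droplet. Barcodes with at most 100 UMIs served as its measure, and may also include broken cells. In WT LPS they held Msr1 at 1777 CPM, so that Msr1 was 0.892 times as abundant in cells as in these barcodes, and a droplet of 500 UMIs of such RNA would show an Msr1 UMI in 58.9% of cases. From the 1% of genes least enriched in cells, free RNA was estimated to make up at most 41.5% of the UMIs of WT LPS cells, which would show an Msr1 UMI in 30.8% of cells. The observed 48.4% lies between the 2 values, so the share does not say how many cells expressed Msr1. With free RNA subtracted at that upper estimate, 1687 of the 3153 Msr1 UMIs remained in WT LPS cells. For Marco, free RNA at 225 CPM would give 10.6% for a droplet of free RNA alone and 4.56% at the upper estimate, on either side of the observed 6.73%. For Scarb1, at 28.5 CPM, these values were 1.42% and 0.59%, on either side of 1.33%. In KO LPS the same low barcodes held Msr1 at 20.1 CPM (4 UMIs) and no Marco UMI, so that the difference between the libraries was present in the free RNA too. No astrocyte-marker or neutrophil-marker cell of WT LPS, 2 of each, held an Msr1 or Marco UMI at this depth.

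The number of UMIs per cell was then compared with that from free RNA. Marco was concentrated in few cells: of the WT LPS cells at 500 UMIs, 1331 had none, 52 had 1, 10 had 2, 14 had 3 to 4, 9 had 5 to 9 and 11 had 10 or more, up to 17. Free RNA alone would put 143 cells at 1 UMI and 0.309 cells at 3 to 4. At least 3 Marco UMIs were found in 34 cells (2.38%, 1.66 to 3.31), where free RNA alone gives 0.0217%, so their Marco UMIs exceed what free RNA gives. Before thinning, the highest WT LPS cell held 70. The variance of Marco over cells was 7.22 times its mean, the highest among 421 genes with a mean within 1.5-fold, ahead of Apoe at 3.05 and against a median of 1.11.

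Msr1 was spread more evenly. At 500 UMIs, 737 WT LPS cells had none, 389 had 1, 172 had 2, 110 had 3 to 4 and 19 had 5 to 9, up to 7. Free RNA alone would give 587, 522, 232, 83.6 and 3.12 cells in these classes, so more cells than that had none and more had 5 or above (1.33%, 0.803 to 2.07, against 0.219%). Its variance was 1.54 times its mean, where the median of 43 genes of like mean was 1.23 and 5 of them were higher.

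**Figure D2:**
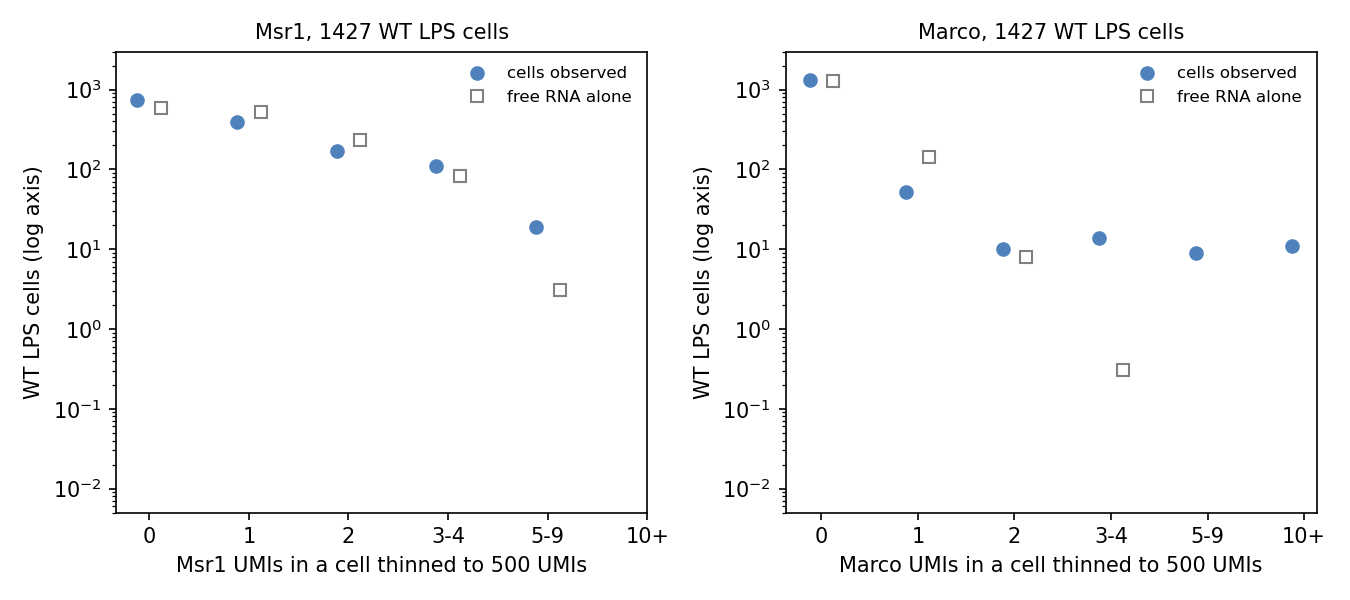
Number of WT LPS cells on a log axis by UMIs of Msr1 (left) and Marco (right) after thinning to 500 UMIs; filled circles are observed cells and open squares the number that free RNA alone would give, drawn from 0.01 cells up, with classes of 0 cells not drawn. Marco has 34 cells at 3 UMIs or more with almost none from free RNA, while the Msr1 counts stay near the squares up to 3 to 4 UMIs.

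Co-detection of the receptors was counted from single UMIs, part of which free RNA supplies to every droplet, so it does not say whether the same cells expressed both. Marco was seen in 7.83% (5.93 to 10.1) of WT LPS cells with an Msr1 UMI and in 5.7% (4.14 to 7.63) of those without, with 54 cells holding both where independence gives 46.4. Msr1 was seen in 47.8% (45.1 to 50.5) of cells without Marco and in 56.2% (45.7 to 66.4) of those with a Marco UMI. Scarb1 and Msr1 shared 13 cells where independence gives 9.19. The intervals of each comparison overlap. In KO LPS the single UMIs allow no such comparison.

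The 34 WT LPS cells with at least 3 Marco UMIs differed from the rest in their inflammatory genes, a grouping that was chosen after the values were seen and carries no test. Saa3, an acute-phase serum amyloid A whose protein family binds scavenger receptors, stood at 26176 CPM in these cells, 6548 CPM in the 62 cells with 1 to 2 Marco UMIs and 3199 CPM in the 1331 cells with none. A Saa3 UMI was present in 73.5% (55.6 to 87.1) of the 34 cells and in 28.8% (26.4 to 31.3) of those without Marco. Among the 34, the lowest cell had 0 Saa3 UMIs, the median 5 and the highest 61 of 500, and 9 cells had none. Lcn2, which encodes the iron-siderophore binding protein lipocalin 2, stood at 2647 CPM against 613 and 367 CPM. Lcn2 is also 1 of a list of 22 inflammatory genes, and the other 21 stood at 11176 CPM (9644 to 12884) against 4097 (3415 to 4874) and 4517 CPM (4357 to 4681). The cells with 1 to 2 Marco UMIs were thus close to those with none on this list.

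The microglial list stood at 29000 CPM (26496 to 31677) in the same 34 cells and 28269 CPM (27866 to 28676) in cells without Marco, but at 23677 CPM (21995 to 25454) in the 62 cells with 1 to 2 Marco UMIs, below both. The homeostatic list was likewise lower in these 62 cells, at 27452 CPM (25638 to 29360) against 31878 CPM (31451 to 32310) without Marco. These intervals pool the UMIs of a class and leave out the spread between its cells, so whether the classes differ was not tested. The 34 cells held no UMI of the 7 monocyte genes, whose defining member Ly6c2 was at 0 in both libraries, 2 UMIs of the neutrophil list and 2 of the border macrophage list. With so few UMIs the upper limits of the 95% intervals were 217 CPM for the monocyte list and 425 CPM for each of the other lists, above the 45.1, 93.2 and 105 CPM of cells without Marco, so a difference in these lists was not detectable at this depth. The type I interferon list stood at 2000 CPM (1385 to 2795) against 2231 CPM (2119 to 2348), with overlapping intervals. An Msr1 UMI was present in 58.8% of the 34 cells. Their median depth before thinning was 1258 UMIs, against 1058 in the cells without Marco. Cells of both mice were among them: 13 had Xist only and 6 a Y-linked UMI only. Saa3 was 6.89 times as high in the 13 as in female cells without Marco, and 8.03 times in the 6 as in male ones. In the 6 male cells 1 cell held 29 of the 45 Saa3 UMIs, and without it the ratio was 3.43; without the highest of the 13 female cells it was 4.89.

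**Figure D3:**
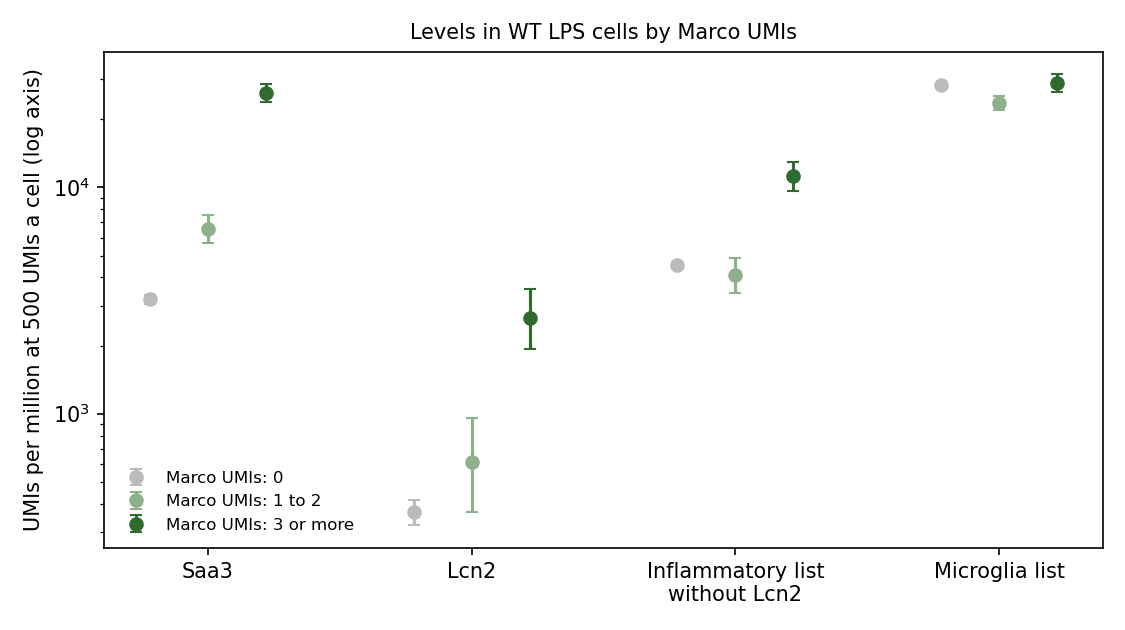
Level in CPM on a log axis of Saa3, Lcn2, 21 inflammatory genes other than Lcn2 and 14 microglial markers in WT LPS cells thinned to 500 UMIs, by their Marco UMIs (grey 0, light green 1 to 2, dark green 3 or more), with exact 95% Poisson intervals. Saa3 stands at 3199, 6548 and 26176 CPM in the 3 classes, while the microglial markers stand at 28269, 23677 and 29000 CPM, lowest in the middle class.

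When WT LPS cells were ordered by the inflammatory list and split into 3 equal parts, a Marco UMI was seen in 3.57% (2.09 to 5.66) of the lowest part, 6.93% (4.82 to 9.6) of the middle and 9.68% (7.18 to 12.7) of the highest. The parts held scores of 0 to 1, 1 to 3 and 3 to 56 UMIs. Cells of equal score were divided by the order of their barcodes. The intervals of the lowest and the highest part did not overlap, but in another random draw they met (4.41%, 2.75 to 6.67, against 9.05%, 6.63 to 12) and at 1000 UMIs they overlapped (8.95%, 5.76 to 13.1, against 12.9%, 9.04 to 17.6). For Msr1 these shares were 45.2% (40.6 to 49.8), 48.7% (44.2 to 53.3) and 51.2% (46.6 to 55.7). Their intervals overlapped, while in the other draw those of the lowest and highest part did not (40.1%, 35.7 to 44.7, against 51.4%, 46.8 to 55.9). At 1000 UMIs the intervals of these parts overlapped (63.8%, 57.6 to 69.7, against 73.4%, 67.6 to 78.7). Whether the genes differ in this was not tested. In the first draw, over like parts of the interferon list and of a homeostatic microglial list, Msr1 lay between 45.2% and 51.2% with overlapping intervals. At least 3 Msr1 UMIs were found in 129 WT LPS cells, where free RNA would give 86.8 cells for droplets of free RNA alone and 9.02 at the upper estimate. These 129 cells had the inflammatory list at 6109 CPM (5520 to 6743), against 4725 CPM (4505 to 4952) in those with none, and Lcn2, 1 of its genes, at 992 CPM (764 to 1267) against 285 CPM (233 to 345). Without Lcn2 the intervals of the list overlapped, at 5116 CPM (4579 to 5699) against 4440 CPM (4227 to 4660). The homeostatic list stood at 34078 CPM (32668 to 35533) in the 129 cells and 31088 CPM (30521 to 31663) in those with none. It was 32663 CPM (31865 to 33476) at 1 Msr1 UMI and 30326 CPM (29173 to 31512) at 2, so no steady direction was seen. The whole KO LPS library stood at 865 CPM for the inflammatory list and 283 CPM for the interferon list, against 5241 and 2208 CPM in WT LPS, so the class A receptors were not the sole genes low there. The homeostatic list went the other way, at 59160 CPM against 32864 CPM in the wildtype library.

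Genes whose detection followed that of Msr1 most closely over the 1427 WT LPS cells, among 1922 genes seen in at least 5% of them, were Sdc4 (correlation of detection 0.141), which encodes a heparan sulfate proteoglycan, AW112010 (0.125), Eif5a (0.105), Naa50 (0.0934), Rps2 (0.0898) and Tmem258 (0.0883). The lowest were Ssh2 and Vwa1 (both -0.103) and Cd84 (-0.0983). These correlations are weak and the cells share a library and its free RNA, so they are given as values alone. The genes most like Marco were Saa3 (0.133), Cybb (0.13), a subunit of the phagocyte NADPH oxidase, and Lcn2 (0.108). Cybb was seen in 28.1% (19.4 to 38.2) of cells with a Marco UMI and 11.1% (9.48 to 12.9) of those without.

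The wider pathway was followed in a list of 59 genes, of which 34 had enough UMIs: 11 were at least 2-fold lower in KO LPS, 4 at least 2-fold higher and 19 neither, with a median log2 ratio of -0.08. Across all genes these shares were 15.3% and 13.5%. Of the 34, 3 (Saa3, Hp and Ch25h) had no UMI in KO LPS and had enough UMIs through WT LPS alone. The list was also chosen with earlier results of these data known, so its counts are not read against the shares of all genes. Among 9 other receptors, 2 were lower and 2 higher. Cxcl16, which encodes a membrane chemokine that doubles as a scavenger receptor for oxidised lipoprotein, had 6 UMIs for KO LPS and 427 for WT LPS (15.7 and 215 CPM, ratio 0.0733, 0.0267 to 0.161). Cd14, the LPS co-receptor, had 66 and 1113 (173 and 560 CPM, ratio 0.309, 0.238 to 0.397). Trem2, a lipid and lipoprotein receptor of microglia, had 340 and 631 (892 and 317 CPM, ratio 2.81, 2.46 to 3.21). Mrc1, the mannose receptor, had 24 and 21 (62.9 and 10.6 CPM, ratio 5.96, 3.18 to 11.3) and was the only border macrophage marker of 8 with a UMI in KO LPS. The low class A receptors were thus not matched by every receptor for lipoproteins and debris: Stab1 had a ratio of 0.999 (0.834 to 1.19), Cd68 of 0.814 (0.661 to 0.994), Mertk of 1.55 (1.38 to 1.75) and Lrp1 of 1.82 (1.5 to 2.2). Scarb2 had 30 and 121 UMIs (ratio 1.29, 0.837 to 1.94).

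Of 6 ligands 3 had enough UMIs, and Saa3 and Hp had them from WT LPS alone, so no count is read from this group against the 15.3% of all genes. Saa3 had no UMI in KO LPS against 8367 in the wildtype library, a level at least 535-fold lower, and Hp, which encodes the haptoglobin that CD163 binds, had 0 and 66, at least 4.22-fold lower (floor 3 UMIs per library). Hp has no row of values in the KO LPS matrix, so its 0 is a missing value read as 0, while Saa3 has a row. Apoe had 100 and 1275 UMIs (262 and 641 CPM, ratio 0.409, 0.33 to 0.502). Of 6 partners and adaptors, Tlr2, which signals with CD14 and CD36, had 12 and 625 UMIs (31.5 and 314 CPM, ratio 0.1, 0.0515 to 0.176), while Tlr4, the LPS receptor itself, had 28 and 130 (ratio 1.12, 0.719 to 1.7). Lyn, a kinase downstream of these receptors, had a ratio of 0.756 (0.65 to 0.876), and Adam17, a sheddase, of 1.04 (0.778 to 1.36). Fyn counted as higher at a log2 ratio of 1.00 that includes the prior count, but its 7 and 19 UMIs leave an interval of the ratio from 0.683 to 4.77.

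Of 11 genes of lipid and haem handling, 4 were lower in KO LPS, 1 higher and 6 neither. Among all genes 15.3% were lower and 13.5% higher. Ch25h, 1 of the 4, reached 20 UMIs through WT LPS alone, so no count is read from this group either. Soat1, which esterifies cholesterol, had 27 and 403 UMIs (ratio 0.349, 0.227 to 0.516), and Plin2, which coats lipid droplets, had 6 and 120 (ratio 0.261, 0.0938 to 0.585). Ch25h, which makes 25-hydroxycholesterol, had 0 and 58, at least 3.71-fold lower, and the haem oxygenase Hmox1 4 and 56, with a ratio of 0.373 whose interval, 0.0981 to 1.01, includes 1. Ch25h, like Hp, has no row of values in the KO LPS matrix, so its 0 is a missing value read as 0. Npc1, a lysosomal cholesterol transporter, was higher (51 and 123 UMIs, ratio 2.16, 1.53 to 3.02). Npc2 had 159 and 1393 UMIs (ratio 0.595, 0.502 to 0.702), Lpl 14 and 125 (ratio 0.584, 0.31 to 1.02) and Nr1h2 15 and 56 (ratio 1.4, 0.734 to 2.5). The cholesterol exporters Abca1 and Abcg1 had ratios of 1.25 (1.05 to 1.47) and 1.11 (0.735 to 1.64), and the lysosomal lipase Lipa of 1.1 (0.825 to 1.44). Among 5 transcription factors, Ets2 was lower with 4 and 57 UMIs (ratio 0.366, 0.0964 to 0.99). Spi1, which encodes the macrophage factor PU.1, had a ratio of 0.895 (0.721 to 1.1), Jun of 1.09 (0.956 to 1.23) and Nfe2l2 of 0.728 (0.606 to 0.868).

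**Figure D4:**
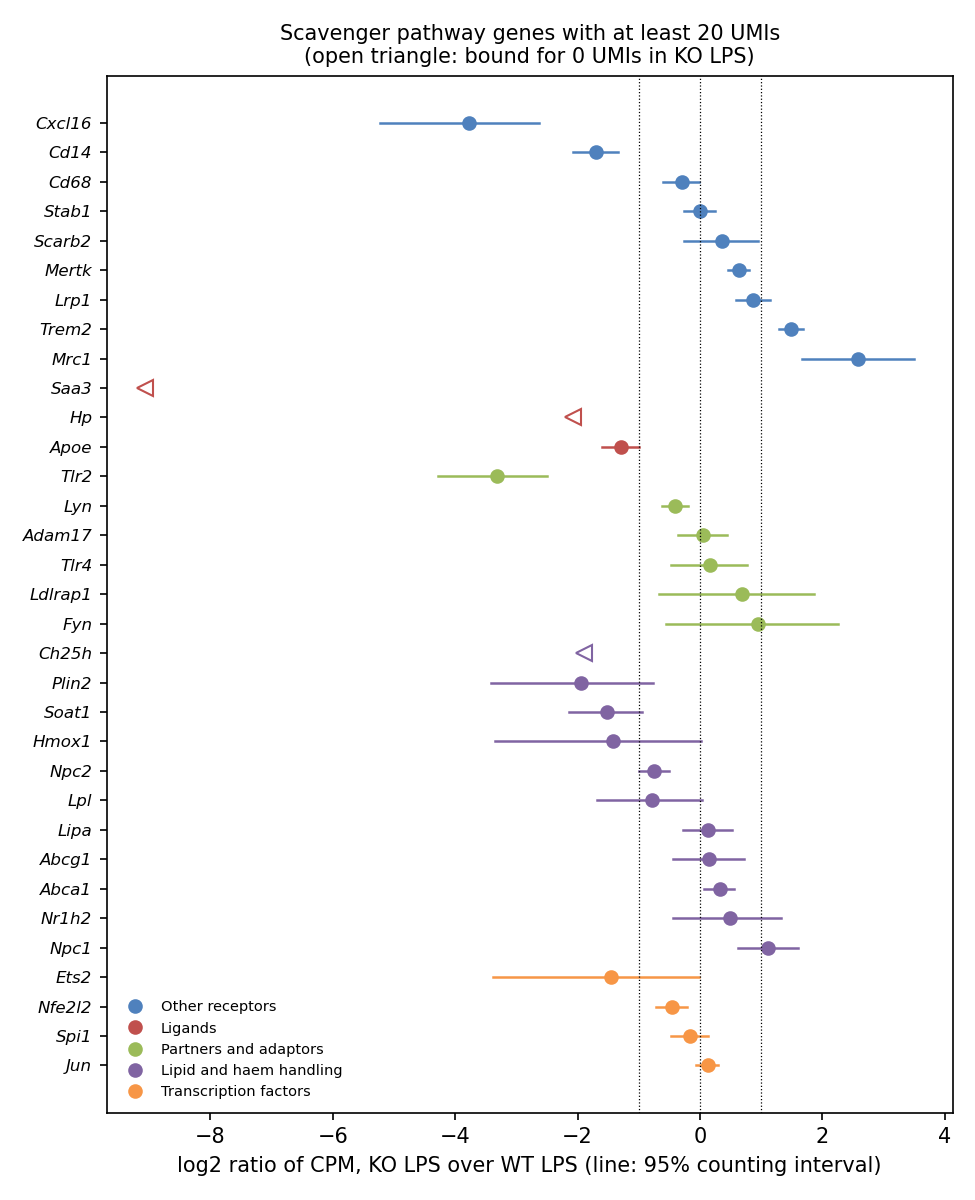
Log2 ratio of CPM, KO LPS over WT LPS, of 33 of the 34 pathway genes with at least 20 UMIs, coloured by role, computed here without a prior count, with 95% counting intervals as lines and open triangles at the bound for genes at 0 in KO LPS; dotted lines mark 2-fold lower, equal and 2-fold higher. Saa3, Cxcl16 and Tlr2 lie far to the left, Trem2 and Mrc1 to the right, and 6 of the 11 genes of lipid and haem handling between the outer dotted lines. Hp and Ch25h, drawn at their bounds, have no row of values in KO LPS.

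Promoter windows around the transcription start were given by RefSeq (GRCm38.p6) for Marco, Cd36, Olr1 and Cd163. The Marco window is shown because that gene carried the concentrated signal. It was searched on both strands for TGANTCA (AP-1), GAGGAA (PU.1) and GGANTTTCC (NF-kB), and capitals mark the match, read from 5′ to 3′ on the minus strand at chr1:120504975-120505274.

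Marco: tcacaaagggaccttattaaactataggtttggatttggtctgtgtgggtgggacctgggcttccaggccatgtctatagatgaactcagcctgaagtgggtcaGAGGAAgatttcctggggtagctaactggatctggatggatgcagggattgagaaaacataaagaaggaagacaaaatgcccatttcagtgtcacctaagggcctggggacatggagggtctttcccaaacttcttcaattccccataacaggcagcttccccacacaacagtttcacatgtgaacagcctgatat

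The window holds 1 match of the PU.1 letters, which 28.3% of all 32851 promoter windows hold, and none of the AP-1 or NF-kB letters, held by 7.81% and 1.25%. The Olr1 window holds 1 AP-1 and 1 PU.1 match, and those of Cd36 and Cd163 none. A match is a run of letters and not a bound site.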

How the data were processed

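The data were 2 deposited matrices of raw UMI counts per gene and cell barcode, which the authors made from Drop-seq libraries and did not filter to cells. Submitters' processing notes name bcl2fastq 2.0, STAR, mm9 and mm10 without their roles, and counting program, annotation and strand are not given in the sources used here. Olr1, Scarb1 and Cd163 each overlap 1 other gene model in position. Strand and exons were not compared, so whether reads were shared is not known.

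The receptors and gene lists were chosen with earlier results of these data known. Cells had at least 500 UMIs and 100 genes, and a value missing from a matrix was read as 0. Doublets were left in. Counts were summed per library and given as CPM of cell UMIs, with 95% intervals that were exact Poisson (levels), binomial on the summed count (ratios) or Clopper-Pearson (shares). Log2 ratios used a prior count of 0.5, and a gene entered counts of 2-fold differences with 20 UMIs over both libraries. Pathway genes were named from 50 UMIs, with Mrc1 and Fyn named in addition because their counts of calls were small, a choice made after their values were seen. The 6 genes most like Msr1, the 3 least like it and the 3 most like Marco were named by correlation of detection. Shares, UMIs per cell and co-detection used cells thinned to 500 UMIs, and free RNA came from barcodes with at most 100 UMIs, with an upper estimate of its share of a cell's UMIs from the 1% of genes with at least 50 UMIs there that were least enriched in cells. The 59-gene list lost 3 genes that are not rows of the matrices here. Values of 1 gene of the list are not reported here, though it stays in the counts. Cells were not tested as replicates. Python 3.11.15, numpy 2.4.6, scipy 1.17.1 and pandas 2.3.3 were used. The ratios, their intervals, the thinning and the correlation of detection were tested on simulated counts that held no free RNA. The free RNA estimate and the classes of cells were not tested in this way. Alternatives covered the cell minimum, the prior count, scaling, free RNA, thinning and subsets of cells. The mouse comparisons used Xist and Y-linked UMIs.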

Additional observations from a re-analysis of the deposited data

How the results depend on the processing

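The log2 ratios of Msr1 (-7.92), Marco (-6.08) and Scarb1 (0.09) stayed within their counting intervals under every alternative run except in male-marker cells, where 0 KO LPS UMIs gave -4.93 for Msr1 and -3.94 for Marco with bounds of at least 5.06-fold and 2.55-fold lower. Receptors at least 2-fold lower numbered 2, or 3 with no minimum of UMIs, and pathway genes at least 2-fold higher numbered 2 with a minimum of 50 UMIs and 7 without a minimum, against 4.

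Shares moved with depth and with the cells used. The WT LPS share with an Msr1 UMI was 69% at 1000 UMIs, 68.3% unthinned, 57.5% in female-marker cells and 42.1% in male-marker cells. That of Marco was 10% at 1000 UMIs and 10.9% unthinned. The KO LPS share of 0.312%, 1 cell for each gene, became 0% for both at 1000 UMIs and in both sets of sex-marker cells, and for Marco also in another random draw. Marco was seen in 11.1% of Msr1-positive cells at 1000 UMIs.

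The genes most like Msr1 were not stable: 1 of the 6 was kept at 1000 UMIs, 1 in another draw and 2 with a correlation of log2(UMIs + 1), so their order carries no weight. The difference in Msr1 share between the highest and the lowest of the 3 score classes was 5.99 percentage points for the inflammatory list and 11.2 in another draw, where the intervals of these classes no longer overlapped. At 1000 UMIs this difference was 9.62, with overlapping intervals. For Marco it was 6.11, 4.64 in another draw and 3.94 at 1000 UMIs, where the intervals overlapped. For the homeostatic list the Msr1 difference was 4.73, and -3.9 in another draw and -9.47 at 1000 UMIs, so no direction can be read, while that of Marco was -3.14, -1.04 and -5.42 with overlapping intervals in each. Of 96 Marco-positive cells, 34 had 3 UMIs or more, and the share of such cells with a Saa3 UMI lay between 66.7% and 84.6% in alternatives chosen after seeing the data, as were those without barcodes 1 base from a deeper one. No paired analysis was possible because each genotype had 1 library.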
